A study of Mus musculus with 6 samples.

Results

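Progenitor and stem-cell markers are the surface proteins and aldehyde dehydrogenases by which mammary progenitors and tumour-initiating cells are sorted. The set held 10 genes, namely Cd34, Procr, Prom1, Cd44, Kit, Ly6a, Aldh1a1, Aldh1a3, Cd24a and Tspan8. A gene was read from probe sets annotated to that symbol alone, and where there were several, the one with the highest mean over the arrays was kept. On that rule 9 of the 10 genes were measured, of 22180 genes tested in all. Ly6a, which encodes Sca-1, was not analysed here.

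Total RNA was hybridised to 6 one-colour biotin-labelled arrays, 3 from SLK-knockout cells and 3 from SLK wild-type cells. Both genotypes were mouse cells carrying NeuNDL, a constitutively active Neu (ErbB2) receptor tyrosine kinase, grown with serum and a mammary epithelial supplement and left untreated. SLK is a Ste20-like kinase that acts in cell migration and in turning over focal adhesions. Cultures at passages 9, 19 and 29 are mentioned by the study, but no array's label gives its passage, clone or line, so p-values measure the spread between these samples, which may be technical. The sources used here do not say how SLK was removed or in how many lines.

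Mammary epithelium is built from basal and luminal cells, and fractions enriched for stem cells or luminal progenitors are separated by flow cytometry on combinations of these proteins. CD44 with little CD24 is the classic surface phenotype of tumour-initiating cells in human breast cancer, and aldehyde dehydrogenase activity is used for the same purpose. Kit, Aldh1a3 and Cd24a are linked to luminal cells and their progenitors, Procr and Tspan8 to stem-like basal cells in the mouse. Several of the proteins are not specific to epithelium: CD34 is best known on blood progenitors, endothelium and stromal cells, and KIT on blood progenitors and mast cells.

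The array medians lay between 3.93 and 3.97 log2 units, and the arrays correlated across probe sets with Pearson's r from 0.990 to 0.994. The number of arrays limits the precision of every value. Slk was at 7.14, 7.21 and 7.20 on knockout arrays 1 to 3, against 8.21, 8.30 and 8.34 on wild-type arrays 1 to 3, a log2 fold change of -1.10 (SE 0.06, limma adjusted p = 0.0021). The fall was 2.15-fold, and the knockout values stayed well above the array medians. Why Slk signal remained was not tested. Of 11 measured mammary epithelial markers, 8 were brighter than the median gene in knockout cells and 9 in wild-type cells, with Krt18 above 99.4% of genes in knockout cells and 99.2% in wild-type cells. The same held for 8 of 13 fibroblast markers in both genotypes, and brightness also depends on the probes. The epithelial markers counted include Erbb2, above 96.2% of genes in knockout cells and 96.4% in wild-type cells. The cells carry an active form of this receptor, and its part in that signal was not tested.

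Knockout and wild-type cells were compared gene by gene with limma, a linear model that pools the estimate of spread over all genes, and p-values were adjusted over the 22180 genes by the Benjamini-Hochberg method with a threshold of 0.05. Fold changes are knockout minus wild-type on the log2 scale. Of the 9 markers 1 rose in knockout cells, Cd34, and 0 fell. In the same fit 0.325% of all genes were called higher and 0.113% lower, 0.437% in either direction. The other 8 markers did not pass, and 1 of the 9 had an unadjusted p under 0.05, again Cd34, as did 2267 of all genes. The median log2 fold change was -0.01 over the 9 markers and 0.00 over all genes, with 4 of the 9 markers having a higher mean in knockout cells.

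**Figure D1:**
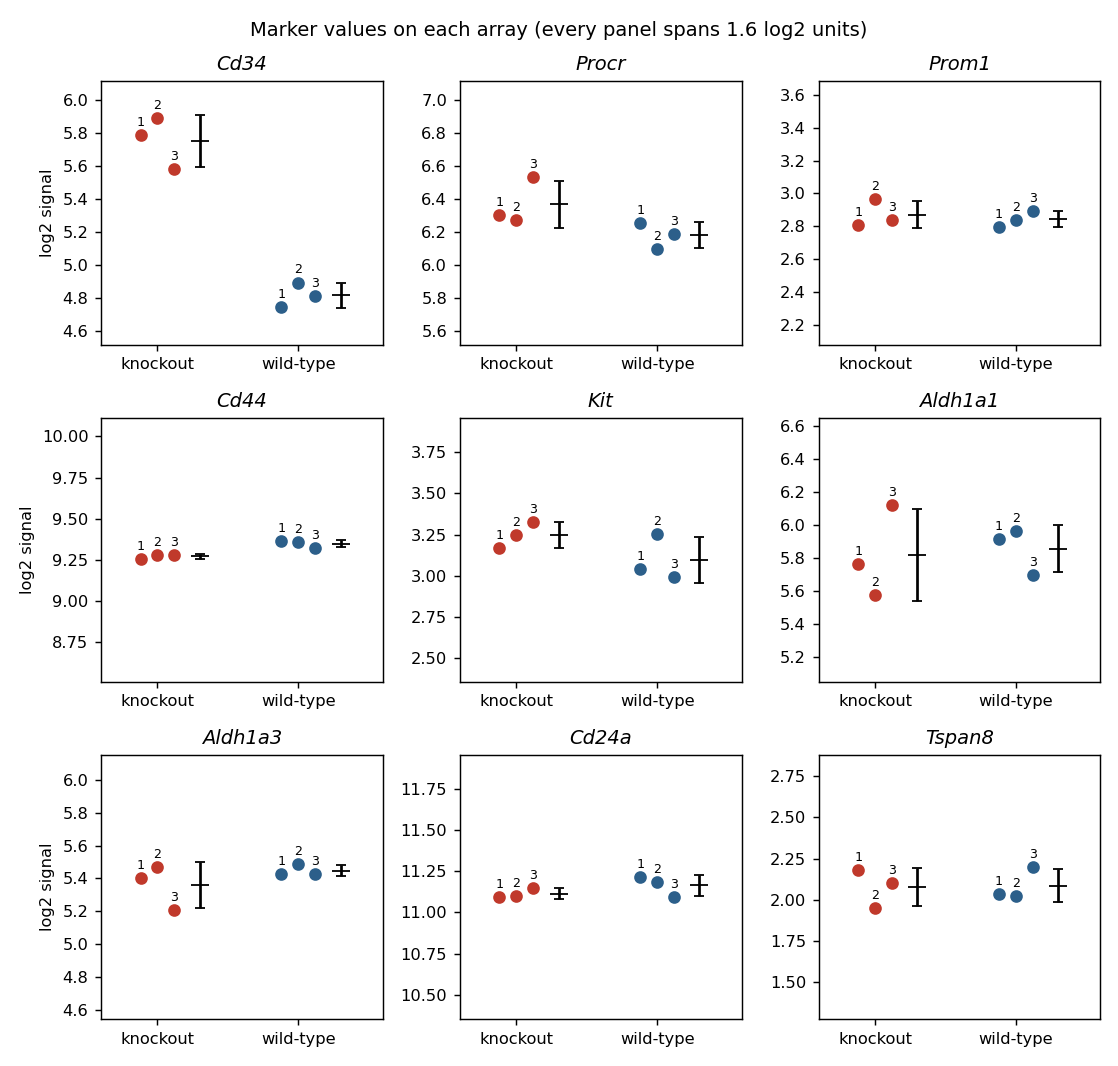
The log2 signal of each marker is plotted for knockout arrays 1 to 3 (red, left) and wild-type arrays 1 to 3 (blue, right), with the group mean and SD beside the points, and all panels have the same height in log2 units. The knockout arrays stand well above the wild-type arrays for Cd34, while the groups lie close together or overlap for the other 8 markers.

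Cd34 encodes a heavily glycosylated sialomucin. Its signal was 5.78, 5.89 and 5.58 on knockout arrays 1 to 3, against 4.74, 4.89 and 4.81 on wild-type arrays 1 to 3. Every knockout array was above every wild-type array, and the gap between the lowest knockout and the highest wild-type value was 0.69 log2 units. The means were 5.75 ± 0.16 in knockout cells and 4.81 ± 0.08 in wild-type cells (SD, n = 3 each). The log2 fold change was 0.94 (SE 0.09, 95% interval 0.72 to 1.15), a 1.92-fold rise with limma adjusted p = 0.017. Among all genes Cd34 ranked 32 by p, and 20 genes had a larger log2 fold change. Its probe set was brighter than 62.1% of genes in knockout cells and 54.5% in wild-type cells, near the middle of the array in both.

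The size of the Cd34 difference varied little with the arrays used, while its call depended on which arrays and which fit were used. Leaving out each array in turn gave log2 fold changes of 0.87 to 1.02. The call was kept without knockout array 3 (limma adjusted p = 0.032). It was lost without knockout array 1 (limma adjusted p = 0.10), knockout array 2 (0.062), wild-type array 1 (0.081), wild-type array 2 (0.064) and wild-type array 3 (0.088). When every probe set on the array was tested by itself, the same difference had limma adjusted p = 0.074. A second, dim probe set is annotated to Cd34 and Gm16897 together and cannot be assigned to either. It averaged 3.41 in knockout cells and 3.39 in wild-type cells, a log2 fold change of 0.01.

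**Figure D2:**
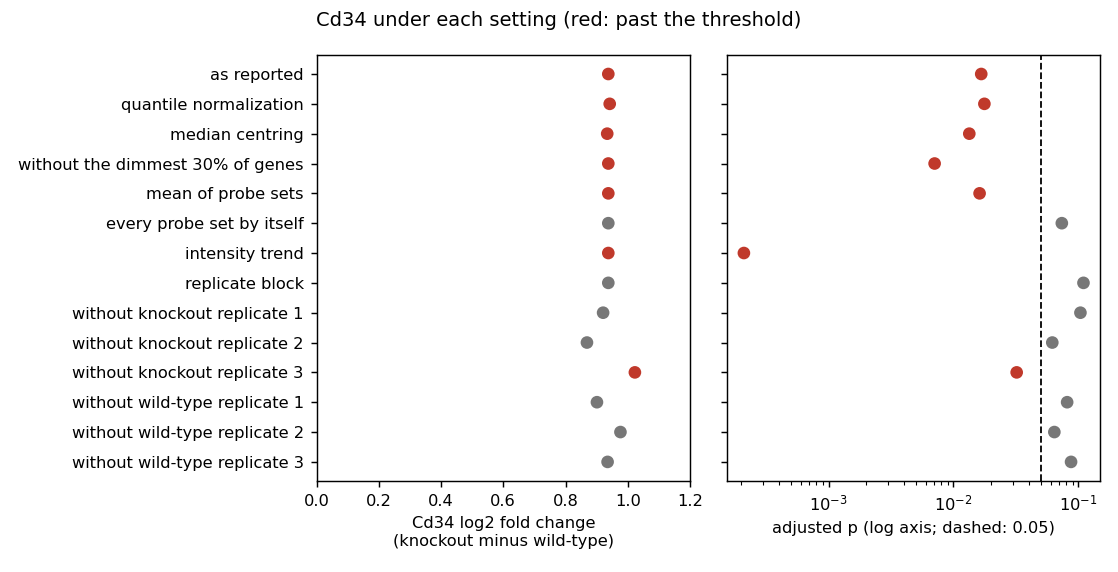
The log2 fold change of Cd34 (left) and its limma adjusted p (right, log axis, dashed line at 0.05) are plotted for the reported fit and each alternative, in red where the threshold was passed. The fold change stays between 0.87 and 1.02, while the adjusted p falls on both sides of the line.

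A list of 20 other sorting markers was chosen with earlier results of these data known, and 0.437% of all genes were called. Beside Cd34, 2 of these 20 were called, the R-spondin receptor gene Lgr6 and Mme, which encodes the surface peptidase CD10, and both rose. The RefSeq promoter windows of these 3 genes are shown because they are the sorting markers that were higher on every knockout array and passed the test. Each window runs from 250 bases before to 50 bases after a transcription start on GRCm38.p6, 5′ to 3′ on the gene's strand, and for Mme, which has 3 listed starts, the most upstream was taken. Capitals mark matches on either strand to the letters of the TATA box (TATAAA), the CAAT box (CCAAT) and the GC box (GGGCGG), and none of the matches shown overlap.
Cd34, chr1:194938571-194938870, + strand: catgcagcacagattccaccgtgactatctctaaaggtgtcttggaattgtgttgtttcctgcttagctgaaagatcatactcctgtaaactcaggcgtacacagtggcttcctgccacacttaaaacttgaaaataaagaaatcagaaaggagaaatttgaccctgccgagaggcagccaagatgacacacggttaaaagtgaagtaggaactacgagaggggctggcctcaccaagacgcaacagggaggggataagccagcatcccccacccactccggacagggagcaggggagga
Lgr6, chr1:135105227-135105526, - strand: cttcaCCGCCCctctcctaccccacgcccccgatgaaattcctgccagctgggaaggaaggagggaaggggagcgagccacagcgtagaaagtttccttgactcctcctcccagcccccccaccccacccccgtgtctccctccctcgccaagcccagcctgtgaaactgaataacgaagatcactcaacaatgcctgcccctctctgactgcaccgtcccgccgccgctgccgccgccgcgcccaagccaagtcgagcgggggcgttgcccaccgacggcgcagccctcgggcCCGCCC
Mme, chr3:63294961-63295260, + strand: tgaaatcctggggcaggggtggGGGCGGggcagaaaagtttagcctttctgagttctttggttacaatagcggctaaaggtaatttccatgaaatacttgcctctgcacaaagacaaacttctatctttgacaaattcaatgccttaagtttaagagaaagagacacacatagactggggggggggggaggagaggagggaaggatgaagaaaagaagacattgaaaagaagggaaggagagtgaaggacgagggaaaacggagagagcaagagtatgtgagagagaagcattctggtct
The Cd34 window held 0 matches to the 3 motifs, that of Lgr6 held 2 to the GC box, and that of Mme 1 to the GC box. Of all 32851 windows 13.6% held the TATA box letters, 37.4% those of the CAAT box and 35.7% those of the GC box. The Cd34 window had 7 CpG dinucleotides, the same as the median window, while Lgr6 had 24 and Mme 4. These letters are a description of the windows and were not measured on the arrays.

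Mme had values of 6.68, 6.79 and 6.55 on knockout arrays 1 to 3, against 5.43, 5.17 and 5.16 on wild-type arrays 1 to 3, a 2.67-fold rise (limma adjusted p = 0.0055). Lgr6 had values of 7.32, 7.34 and 7.26 on knockout arrays, against 6.65, 6.68 and 6.64 on wild-type arrays, a 1.57-fold rise (limma adjusted p = 0.0066). The groups did not overlap for either gene. The call of Mme was kept whichever array was left out, but not with a block for replicate number in the fit (limma adjusted p = 0.07). That of Lgr6 was lost without knockout array 1 (limma adjusted p = 0.060) or wild-type array 3 (0.054), and with the replicate block (0.11). The next member by p was Cd55, a complement regulator on the cell surface, with a log2 fold change of -0.35 (SE 0.05, limma adjusted p = 0.054). It passed without the dimmest 30% of genes (limma adjusted p = 0.020) and with an intensity trend (0.0012). The median log2 fold change of the 20 sorting markers was -0.03.

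The genes whose values followed those of Cd34 most closely over the 6 arrays were found by the root mean square difference between deviations from each gene's own mean. They were Ccl9, a chemokine (0.09 log2 units), Fgf15, a fibroblast growth factor (0.11), and Atp2b4, a plasma membrane calcium pump (0.11), against a median of 0.48 over all other genes. All 3 were higher in knockout cells by limma, with log2 fold changes of 1.05, 0.79 and 0.72 (adjusted p = 0.0030, 0.022 and 0.033). With 6 arrays and a difference between 2 genotypes, this measure mostly finds genes with a step of the same size.

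Since CD34 also marks endothelium, blood progenitors and stroma, lists of endothelial, leukocyte and mast cell, and fibroblast markers were read on the same arrays. No list of blood progenitor markers was read. In the same fit 0.437% of all genes were called, and 2267 of all 22180 genes had an unadjusted p under 0.05. Of 14 endothelial markers 0 were called by limma and 5 had an unadjusted p under 0.05, with Robo4 at a log2 fold change of 0.23 (limma adjusted p = 0.18), Sox17 at 0.22 (0.24) and Tek at -0.22 (0.36). Their summed linear signal was 234.3 to 245.2 on knockout arrays and 228.6 to 243.0 on wild-type arrays, so that the groups overlapped. Of the 14, 2 were brighter than the median gene in each genotype. Of 15 leukocyte and mast cell markers 0 were called by limma and 3 had an unadjusted p under 0.05, led by Tyrobp (0.29), Fcer1a (-0.17) and Fcer1g (0.26), and their sum was 266.6 to 285.0 on knockout arrays and 267.7 to 287.3 on wild-type arrays. Of these 15, 3 were brighter than the median gene in knockout cells and 2 in wild-type cells, the brightest being Cd68, above 76.1% of genes in knockout cells and 76.6% in wild-type cells.

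Of 13 fibroblast markers 1 fell, Pdgfrb (1.59-fold lower, limma adjusted p = 0.0066), while Dcn (log2 fold change 0.43) and Postn (0.37) did not pass. With an intensity trend in the limma fit they did (adjusted p = 0.0081 and 0.0075), and 2 fibroblast markers were then called higher and 2 lower. The fibroblast sum was 810.2 to 835.0 on knockout arrays and 828.1 to 871.6 on wild-type arrays. Of 11 mammary epithelial markers 2 fell, the basal keratin gene Krt14 (1.58-fold lower, limma adjusted p = 0.0096) and Cdh1, which encodes E-cadherin (1.34-fold lower, limma adjusted p = 0.022), and Epcam had a log2 fold change of -0.35 (limma adjusted p = 0.083). With the mean of its bright and its dim probe set, Cdh1 had a log2 fold change of -0.27 (limma adjusted p = 0.45). With the intensity trend 2 epithelial markers were called higher and 4 lower, Epcam among them (limma adjusted p = 0.0028), and Epcam also passed without the dimmest 30% of genes (0.036). The epithelial sum was 4679.8 to 4801.9 on knockout arrays and 4651.2 to 4764.6 on wild-type arrays. Such linear sums weigh the brightest genes most, such as Krt18 here and Cd68 among the leukocyte markers, and say little about dimmer ones. No marker was at 0, the lowest value of any of these lists being 0.98 log2 units. In bulk RNA a change in the number of cells of a type and a change in RNA per cell cannot be told apart, and the part of such cells in the Cd34 value was not tested. With single arrays left out, Pdgfrb lost its call without wild-type array 2 (limma adjusted p = 0.050), Krt14 kept it only without wild-type array 1 (0.045), and Cdh1 lost it each time (0.098 to 0.13).

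Procr, Prom1 and Tspan8 are further surface markers of the set. Procr, the receptor for protein C, had values of 6.30, 6.27 and 6.53 on knockout arrays 1 to 3, against 6.25, 6.10 and 6.19 on wild-type arrays 1 to 3. The knockout values were all above the wild-type values, but by a gap of 0.02 log2 units, and knockout array 3 stood highest. The log2 fold change was 0.19 (SE 0.09, 95% interval -0.02 to 0.39, limma adjusted p = 0.53), so a rise of up to 1.31-fold lies within the interval.

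Prom1 encodes CD133, a membrane protein of cell protrusions. It was dim, at 2.81, 2.97 and 2.84 on knockout arrays, against 2.80, 2.84 and 2.89 on wild-type arrays, brighter than 20.6% of genes over all arrays. The groups overlapped, and the log2 fold change was 0.03 (SE 0.06, 95% interval -0.12 to 0.18, limma adjusted p = 0.92). Tspan8, a tetraspanin, was the dimmest marker, with 2.18, 1.95 and 2.10 on knockout arrays and 2.03, 2.02 and 2.20 on wild-type arrays. Its values were interleaved, and the log2 fold change was -0.01 (SE 0.08, 95% interval -0.20 to 0.19, limma adjusted p = 0.99). For both genes the sign of the difference turned with some single arrays removed, and without detection calls a value this low does not show whether the gene was on or off.

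Cd44 and Cd24a are the pair of the classic tumour-initiating phenotype. Cd44, the hyaluronan receptor, was bright, with values of 9.26, 9.28 and 9.28 on knockout arrays, against 9.36, 9.36 and 9.32 on wild-type arrays. All knockout values were below all wild-type values, by a gap of 0.04 log2 units. The log2 fold change was -0.08 (SE 0.05, 95% interval -0.19 to 0.03, limma adjusted p = 0.65). The spread within groups was very small, with a pooled SD of 0.02 log2 units, lower than in nearly all genes: 1.2% of genes had one as small.

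Cd24a, a small glycoprotein anchored to the membrane by lipid, was brighter than 99.7% of genes. It was at 11.09, 11.10 and 11.15 on knockout arrays, against 11.22, 11.19 and 11.09 on wild-type arrays, and the groups overlapped. This gave a log2 fold change of -0.05 (SE 0.05, 95% interval -0.18 to 0.08, limma adjusted p = 0.80). A second, dimmer probe set for Cd24a averaged 7.78 in knockout cells and 7.79 in wild-type cells, a log2 fold change of -0.01.

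Taking Cd44 minus Cd24a on each array, a within-array contrast whose absolute level depends on the probes, gave -1.83, -1.82 and -1.87 on knockout arrays and -1.85, -1.83 and -1.77 on wild-type arrays. The contrast differed between knockout and wild-type cells by -0.02 log2 units (two-sided exact permutation p = 0.50, where 3 against 3 arrays allow no p below 0.10). The groups overlapped, so no difference in this RNA contrast was detectable with these arrays. Surface CD44 and CD24 protein on single cells, which defines the phenotype, was not measured.

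**Figure D3:**
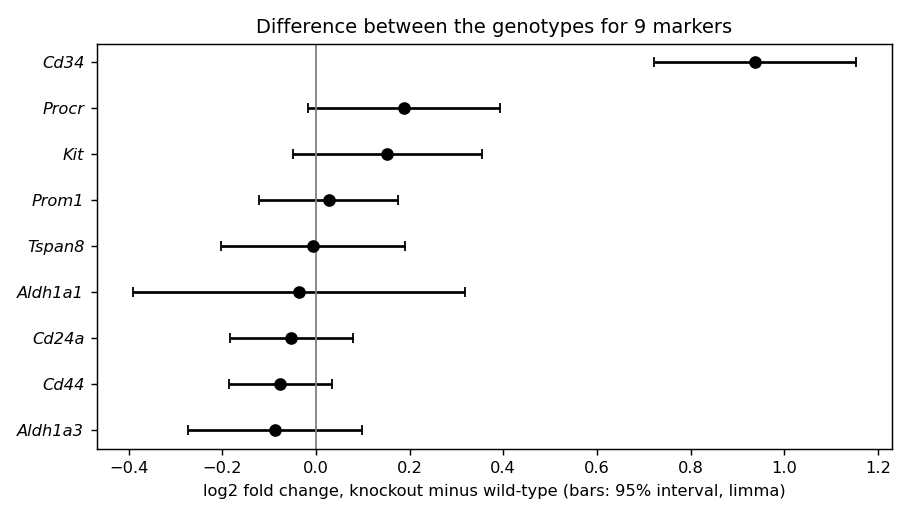
Points are log2 fold changes of the 9 markers, knockout minus wild-type, and bars are their 95% intervals from limma. The interval of Cd34 lies wholly above 0, from 0.72 to 1.15, and the intervals of the other 8 markers all include 0 and lie between -0.39 and 0.39.

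The luminal progenitor and aldehyde dehydrogenase markers were Kit, Aldh1a1 and Aldh1a3. Kit, the receptor for stem cell factor, was dim, with values of 3.17, 3.25 and 3.32 on knockout arrays, against 3.04, 3.25 and 2.99 on wild-type arrays. Wild-type array 2 lay within the knockout range, so the groups overlapped. This gave a log2 fold change of 0.15 (SE 0.08, 95% interval -0.05 to 0.35, limma adjusted p = 0.61).

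Aldh1a1 and Aldh1a3 encode enzymes that oxidise retinaldehyde to retinoic acid. Aldh1a1 was the most variable marker within groups, with 5.76, 5.57 and 6.12 on knockout arrays, against 5.91, 5.96 and 5.70 on wild-type arrays. Knockout arrays gave both the highest and the lowest of the 6 values. Its pooled SD of 0.22 log2 units was at or above that of 91.0% of genes. Its log2 fold change was -0.04 (SE 0.15), with a 95% interval of -0.39 to 0.32 that was the widest among the 8 markers not called (limma adjusted p = 0.96). Aldh1a3 had values of 5.40, 5.47 and 5.21 on knockout arrays, against 5.43, 5.49 and 5.42 on wild-type arrays. Knockout array 3 was the lowest and the others overlapped, with a log2 fold change of -0.09 (SE 0.08, 95% interval -0.27 to 0.10, limma adjusted p = 0.76).

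In all, knockout and wild-type arrays did not overlap for 3 of the 9 markers, Cd34, Procr and Cd44, and the same was true of 16.9% of all genes tested. The 95% intervals of the 8 markers not called all lay within 0.5 log2 units of 0. None of these intervals excludes 0, and none shows that the 2 genotypes were alike.

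Genes around the markers were read from lists of their families and partners, in the fit that called 0.437% of all genes. In that fit 2267 of all 22180 genes had an unadjusted p under 0.05. Of 33 other aldehyde dehydrogenases and retinoid genes 0 were called by limma and 6 had an unadjusted p under 0.05, with a median log2 fold change of 0.02. Their smallest p belonged to Aldh1a7, a close relative of Aldh1a1 whose signal may be shared with it. It was at 5.23, 5.49 and 5.34 on knockout arrays, against 4.77, 4.83 and 4.51 on wild-type arrays, a log2 fold change of 0.65 (SE 0.10, limma adjusted p = 0.077). Aldh1a7 passed without the dimmest 30% of genes (limma adjusted p = 0.039) and with the intensity trend (0.0068), which made it the 1 call of this list. The groups did not overlap for Aldh1a7, whereas those of Aldh1a1 did. Aldh3b1 and Aldh7a1 followed, with log2 fold changes of 0.27 and 0.18 (limma adjusted p = 0.36 and 0.37).

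Of 27 other tetraspanin genes 1 rose, Tspan17, and 0 fell, with a median log2 fold change of 0.00. Tspan17 averaged 5.66 ± 0.13 in knockout cells and 4.92 ± 0.13 in wild-type cells (SD, n = 3 each), 1.67-fold higher (limma adjusted p = 0.038). Its groups did not overlap, but its call was lost whichever single array was left out, with limma adjusted p of 0.080 to 0.16. Tspan18 and Tspan12 had log2 fold changes of 0.38 and 0.30 and did not pass (limma adjusted p = 0.12 and 0.34), though Tspan18 did with the intensity trend (0.012). An unadjusted p under 0.05 was found for 2267 of all 22180 genes and for 3 of 23 Ly6 family genes, the relatives of Ly6a. Of these Ly6 family genes 0 were called by limma. Their leading members were Gpihbp1, which carries lipoprotein lipase across endothelium, at 0.29 (limma adjusted p = 0.18), Lypd6b at -0.20 (0.36) and Lypd3 at -0.28 (0.41), with a median of 0.06.

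Of 29 ligands, homologs and partners of the markers 0 were called by limma, with a median log2 fold change of 0.02. An unadjusted p under 0.05 was found for 7 of them and for 2267 of all 22180 genes. Kitl, the ligand of Kit, had values of 6.84, 6.92 and 6.96 on knockout arrays, against 6.57, 6.66 and 6.59 on wild-type arrays. The groups did not overlap, and the log2 fold change was 0.30 (SE 0.06, limma adjusted p = 0.12). Has2, a synthase of the Cd44 ligand hyaluronan, was at 7.27, 7.04 and 7.01 on knockout arrays, against 7.63, 7.53 and 7.45 on wild-type arrays, a log2 fold change of -0.43 (SE 0.09, limma adjusted p = 0.15). Its groups were also apart. Prom2, the homolog of Prom1, had a log2 fold change of 0.30 (SE 0.08, limma adjusted p = 0.25). With the intensity trend these 3 genes passed, with limma adjusted p = 0.014 for Kitl, 0.0098 for Has2 and 0.039 for Prom2, so that 2 were called higher and 1 lower.

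**Figure D4:**
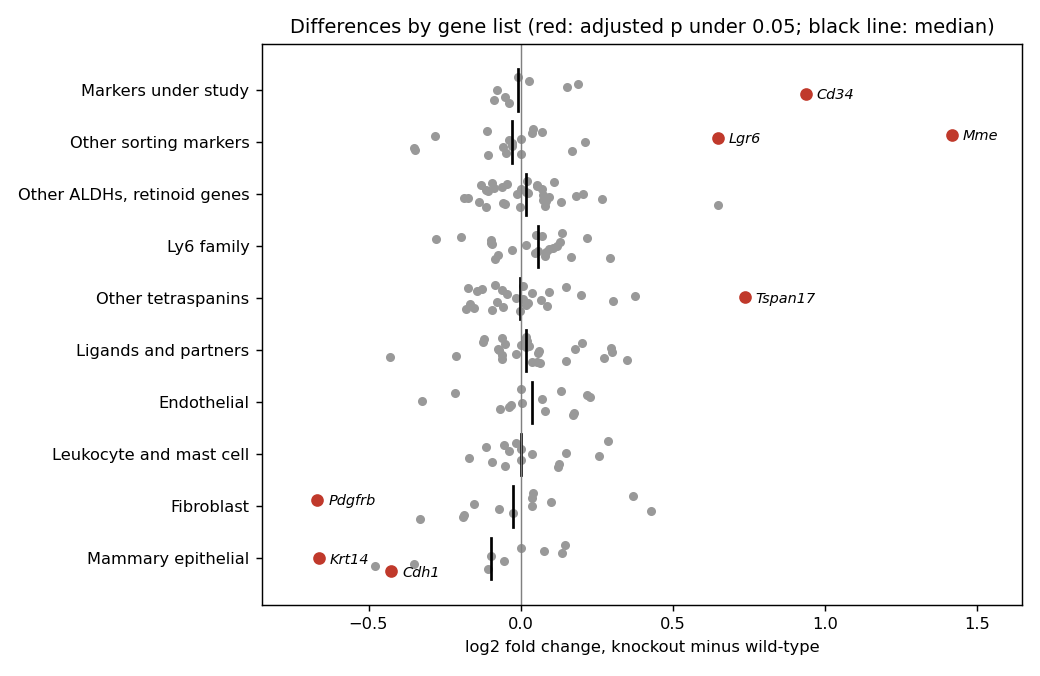
Each point is the log2 fold change of 1 gene, knockout minus wild-type, in the 9 markers and in each list of related genes or cell type markers, with genes past the limma threshold in red and named, and the list median as a black line. List medians lie between -0.10 and 0.06, and the named genes are Cd34, Lgr6, Mme, Tspan17, Pdgfrb, Krt14 and Cdh1.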

How the data were processed

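The authors deposited 1 table of log2 values for 41345 probe sets on 6 arrays. The submitters' processing notes name Affymetrix Expression Console 1.4.1.46. How the background was corrected, how arrays were normalized and summarised, and the log base are not given there. The values were taken as log2 because the highest, 12.4, exceeds the natural log of a 16-bit scanner's limit (11.1).

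The platform's annotation gave 23521 probe sets 1 symbol and 1814 several, and 16010 were not listed. The brightest probe set of each single symbol was kept, without a filter on dim genes. Groups came from sample titles. The comparison of genotypes used lmFit and eBayes of limma 3.58.1 (R 4.3.3), two-sided and without covariates, and intervals are from its moderated fit. On simulated arrays of 22180 genes with the real means and spreads, the fit recovered 60% of genes changed by 0.5 log2 units and 87% of those changed by 1, with 11 of 21980 unchanged genes called. The simulation drew independent normal noise and took each gene's estimated SD as true, so these rates need not hold for the real arrays.

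The rule for named genes took all 9 measured members, Slk, in each list the 3 genes of smallest p, every list gene called, and the 3 genes most like Cd34. Krt18 and Cd68 were added after their values were seen. The members and lists were chosen with earlier results of these data known. The closest arrays, wild-type 2 against wild-type 3, had differences with an SD of 0.26 over probe sets, and all 6 were treated as separate samples. The alternatives were a replicate block, an intensity trend, quantile normalization, centring on array medians, dropping the dimmest 30% of genes, averaging probe sets per symbol, testing probe sets singly, and leaving out each array. List genes not measured under the same rule were not analysed here. Sequences are from RefSeq (GRCm38.p6). Of the 10 markers 7 had a promoter window.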

Additional observations from a re-analysis of the deposited data

How the results depend on the processing

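Of the 9 markers, Cd34 kept its sign in all 13 alternatives (log2 0.87 to 1.02) and its call in 6, and no other marker passed the threshold in any that tested it. Prom1, Kit and Tspan8 were tested in 12, since dropping the dimmest 30% of genes removed them. The 1 marker called higher became 0 with every probe set tested by itself, 0 with the replicate block and 0 to 1 with 1 array left out, and the number called lower was 0 throughout. The 72 higher and 25 lower genes became 143 and 63 without the dimmest 30% of genes, 25 and 4 with every probe set by itself, and 265 and 176 with the intensity trend. With 1 array left out there were 13 to 24 higher and 2 to 5 lower. Testing every probe set by itself used 41345 tests in place of 22180, and the cause of these shifts in counts was not tested. With the trend the 20 sorting markers had 2 higher and 2 lower, the 27 tetraspanins 2 and 1, the 29 ligands and partners 2 and 1, the 33 aldehyde dehydrogenase and retinoid genes 1 and 0, the 13 fibroblast markers 2 and 2 and the 11 epithelial markers 2 and 4, while the Ly6, endothelial and leukocyte lists kept 0 calls. Tested as single probe sets, Tspan17, Krt14 and Cdh1 lost their calls (limma adjusted p = 0.14, 0.055 and 0.12). With the trend Cd34 had limma adjusted p = 0.00021. The replicate block left 5 higher and 1 lower genes, and Cd34 had limma adjusted p = 0.11. Mme, Lgr6, Pdgfrb, Krt14, Cdh1 and Tspan17 also lost their calls with it (limma adjusted p = 0.07, 0.11, 0.11, 0.11, 0.19 and 0.20). The labels do not say whether same-numbered arrays share a passage or a batch. Deviations of same-numbered arrays from the group means correlated by 0.04, 0.02 and -0.07 over genes, which does not settle whether they were paired. Signs turned for 3 uncalled markers: with 1 array left out Prom1 ranged from -0.0196 to 0.0584 (negative without knockout array 2), Aldh1a1 from -0.1879 to 0.0867 (positive without knockout array 2 or wild-type array 2) and Tspan8 from -0.0572 to 0.056 (positive without knockout array 2 or wild-type array 3), and Tspan8 had 0.0036 with quantile normalization. Dim markers (Prom1, Kit and Tspan8) are those for which low signal most limits what could be seen.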
